A study of Mus musculus with 16 samples.

Results

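The genes of 10 proteins that recruit and activate neutrophils were followed through LLC1 tumours: the chemokines Cxcl1, Cxcl2, Cxcl3 and Cxcl5, their receptor Cxcr2, the interleukin-1 (IL-1) family genes Il1a, Il1b and Il1rn, and the colony stimulating factors Csf2 and Csf3. The members were taken by gene symbol, and all 10 were found among the 24334 mouse genes of the deposited table. LLC1 is a mouse Lewis lung carcinoma line grown here as tumours in mice, and RNA sequencing was done on the enriched tumour cells after 16 days of treatment. The 4 groups were Combo (MYCi975 and TMP195 together, with the dose of each in the mixture not stated), MYCi975 at 50 mg/kg, TMP195 at 50 mg/kg, and Vehicle (DMSO), with 4 libraries in each, numbered 1 to 4. MYCi975 is a compound that blocks the transcription factor MYC, and TMP195 inhibits class IIa histone deacetylases. The labels do not say whether libraries came from separate mice, and a p-value here therefore refers to spread among libraries, part of which may be technical. The genes are a functional family, but the family was selected on knowledge of values from these same libraries, among them the difference of Cxcl3 between TMP195 and Vehicle.

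CXCL1, CXCL2, CXCL3 and CXCL5 are secreted chemokines that draw neutrophils out of the blood through the receptor CXCR2 on the neutrophil surface. IL-1α and IL-1β signal through the IL-1 receptor, which switches on NF-κB and the transcription of these chemokines in many cell types, while the product of Il1rn blocks that receptor. G-CSF, from Csf3, drives the production of neutrophils in bone marrow, and GM-CSF, from Csf2, that of granulocytes and macrophages. Carcinoma cells and fibroblasts can make chemokines and G-CSF, whereas IL-1β, its antagonist and CXCR2 are known mainly from myeloid cells.

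Cxcl1, Cxcl2 and Cxcl3 are neighbouring copies of 1 ancestral gene on chromosome 5, and their promoters are shown because the files hold values for all 3 and NF-κB, the factor downstream of IL-1, is known to act there. The sequences are the 250 bases before the transcription start from RefSeq (GRCm38.p6, + strand), with the longest run that the 3 share in capitals; promoters of 8 of the 10 members were in the sequence table.
Cxcl1, chr5:90890995-90891244: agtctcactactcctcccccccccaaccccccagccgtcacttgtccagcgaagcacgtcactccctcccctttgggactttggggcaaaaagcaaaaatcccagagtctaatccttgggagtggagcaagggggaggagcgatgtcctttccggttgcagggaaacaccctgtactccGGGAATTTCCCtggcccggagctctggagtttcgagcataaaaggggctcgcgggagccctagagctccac
Cxcl2, chr5:90903649-90903898: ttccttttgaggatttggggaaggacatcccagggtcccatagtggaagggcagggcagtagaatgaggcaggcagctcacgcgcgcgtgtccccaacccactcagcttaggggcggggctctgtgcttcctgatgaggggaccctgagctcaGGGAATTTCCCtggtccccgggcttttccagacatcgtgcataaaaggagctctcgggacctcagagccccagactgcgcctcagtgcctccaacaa
Cxcl3, chr5:90785851-90786100: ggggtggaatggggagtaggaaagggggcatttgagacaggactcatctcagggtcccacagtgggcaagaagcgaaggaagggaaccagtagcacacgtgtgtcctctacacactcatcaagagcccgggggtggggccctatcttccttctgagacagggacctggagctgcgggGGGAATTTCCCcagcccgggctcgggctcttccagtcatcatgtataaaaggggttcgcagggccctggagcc

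The shared run, GGGAATTTCCC, lies at positions -71 to -61 from the start in Cxcl1, -97 to -87 in Cxcl2 and -73 to -63 in Cxcl3. It was picked after the sequences were seen, and occurs on either strand in 14 (0.0426%) of 32851 promoters of the same length. It overlaps a match to the looser NF-κB pattern, GGG and CC with any 5 bases between them, which was found in 5 of the 8 members (Cxcl1, Cxcl2, Cxcl3, Cxcr2 and Il1rn) and in 45.8% of all promoters on either strand. The 8 members have 10 promoters in all, and a member counts here if any of its promoters matches, whereas the shares of all promoters are per promoter. The AP-1 pattern TGANTCA was found in Il1a and Il1rn (6.75% of all promoters), and the MYC E-box CACGTG in Cxcl3 alone (6.02%). The MEF2 pattern, CTA and TAG with any 4 bases between them, searched because class IIa histone deacetylases bind MEF2 factors, was in none of the 8 (3.2% of all promoters).

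Values are variance-stabilised expression on a scale close to log2, as the authors deposited them, and every library has the same lowest value, 4.84, taken here to stand for a gene without reads. They are not set per gene length, so levels are compared between libraries and not between genes. The depth per library is unknown. Of the 10 genes, 8 passed the filter of at least 1 log2 unit above 4.84 in at least 4 of the 16 libraries. Csf2 lay within 1 unit of the lowest value in all 16 libraries and Il1a in 15, of which 6 were at the lowest value itself. Il1rn lay within 1 unit in 11 libraries and Cxcl3 in 10, and these 2 genes passed mainly through TMP195 libraries: Cxcl3 in all 4 of them, MYCi975 replicate 3 and Vehicle replicate 1, and Il1rn in TMP195 replicates 1, 2 and 4 and MYCi975 replicates 3 and 4. Cxcl2 lay within 1 unit in 1 library, Combo replicate 3, and Cxcl1, Cxcl5, Cxcr2, Il1b and Csf3 in none.

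Libraries differed in ways that the treatments do not explain. On the first principal component, with 21.2% of the variance, replicate 4 of MYCi975, TMP195 and Vehicle scored 26.6, 32.02 and 33.2, and the other 13 libraries between -19.5 and 5.90. On the second, MYCi975 replicate 3 and TMP195 replicate 1 stood apart at -29.1 and -28.7. The keratins Krt8 (10.17 to 10.97) and Krt18 (10.18 to 11.45) were present in every library, while Epcam was at the lowest value in 9 and Cdh1 in 5. RNA of leukocytes was present too. The mean of 10 general leukocyte markers ran from 5.94 to 6.39 in Combo, 5.95 to 7.05 in MYCi975, 6.24 to 7.56 in TMP195 and 6.02 to 6.49 in Vehicle, with Ptprc, which encodes the leukocyte protein CD45, between 5.81 and 8.95 over the 16 libraries. In such bulk RNA, fewer cells of a type and less RNA per cell cannot be told apart.

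The 10 members did not vary as 1 group. Cxcl1, Cxcl5 and Csf3 followed each other from library to library, Cxcl2, Cxcl3, Il1b, Il1rn and Cxcr2 followed each other, and the 2 sets had little to do with one another. This split was seen in the data and was not set out in advance. The p-values of Cxcl3 over all 16 libraries, here and with the marker means below, partly use the TMP195 values known when the members were chosen. Over the 8 genes that passed the filter there are 28 pairs, and 13 had a Pearson r with a permutation p (two-sided, 100000 resamples) adjusted over the 28 under 0.05. All 3 pairs within the first set were among them, with r from 0.89 to 0.91 and Spearman rho from 0.89 to 0.91 (each adjusted p for r = 7e-05). So were all 10 pairs within the second set, with r from 0.63 to 0.89 and rho from 0.34 to 0.84, of which 6 also passed by rho. None of the 15 pairs between the sets did, with r from -0.14 to 0.49.

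**Figure D1:**
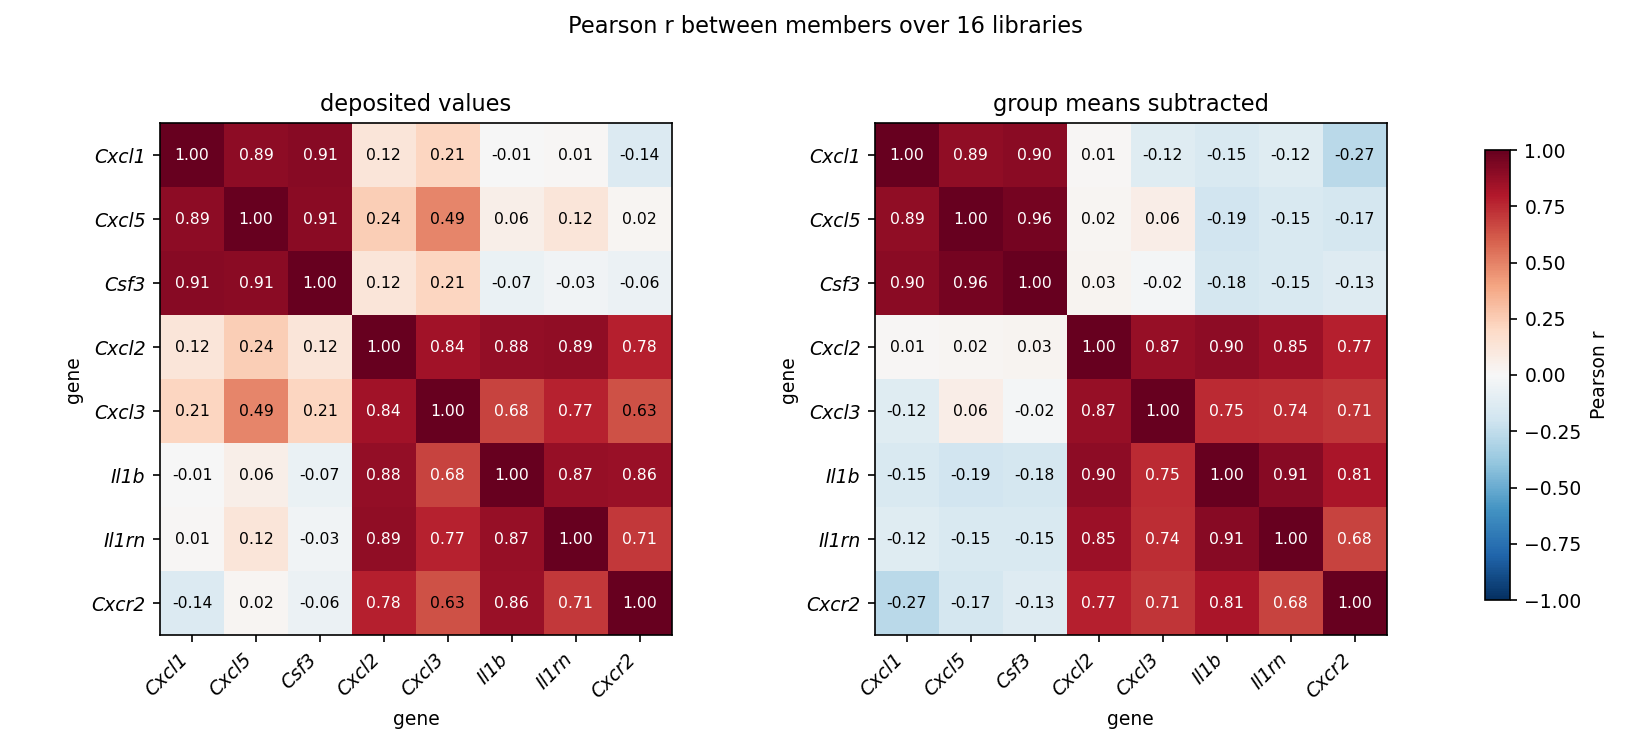
Pearson r between the 8 genes above the filter over 16 libraries, with gene names on both axes; the left panel uses the deposited values and the right panel values after each group's mean was subtracted. Cxcl1, Cxcl5 and Csf3 form a square of r of 0.89 or more in both panels, the other 5 genes a second square, and between the squares no r passes 0.49.

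The first set held without the 2 libraries farthest from the median, TMP195 replicates 2 and 3, with r from 0.79 to 0.85. Of the 10 pairs in the second set, 5 no longer passed by r without the 2 farthest libraries of 1 gene of the pair, and only 2 passed by rho. Of these, Cxcr2 with Cxcl2 (r = 0.40) and with Il1rn (r = 0.43) had r far below the values over all libraries (0.78 and 0.71). In the other 3, r was 0.59 for Cxcr2 with Il1b, 0.61 for Cxcr2 with Cxcl3 and 0.61 for Il1b with Cxcl3 (permutation adjusted p = 0.0578 each, 14 libraries). Their rho was 0.49, 0.04 and 0.42 in the same order. The 2 pairs with Cxcl3 left out TMP195 replicates 1 and 2 and kept MYCi975 replicate 3, the highest library for Cxcr2 and Il1b. The pairs of Cxcr2 with Cxcl2, Il1rn and Il1b left MYCi975 replicate 3 out, so these values of r cannot be ranked against each other. After each group's mean was subtracted, all 13 pairs still passed by r. Here r ran from 0.89 to 0.96 in the first set and from 0.68 to 0.91 in the second. By rho, all 3 pairs of the first set passed and 4 of the 10 in the second. By r, the pattern was thus present among libraries of the same treatment. The permutations moved values freely among the 16 libraries, although groups differed in spread (Il1b SD 1.87 in MYCi975, 0.56 in Combo), so these p-values may be too small. Without the 4 libraries numbered 4, of which 3 stand apart on the first component, all 13 passed by r as well. By rho, all 3 pairs of the first set and 5 of the 10 in the second did.

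Cxcl1, the main neutrophil chemokine that carcinoma cells are known for, had values of 13.43, 12.31, 12.38 and 12.44 in Combo and 12.82, 12.27, 12.48 and 12.77 in MYCi975. The TMP195 libraries had 13.03, 13.64, 13.74 and 12.15, against 12.99, 13.17, 12.80 and 12.90 in Vehicle. TMP195 thus held both the 2 highest libraries and the lowest of all 16, and Combo replicate 1 lay well above the other 3 of its group. Group means were 12.64 ± 0.53 in Combo, 12.58 ± 0.26 in MYCi975, 13.14 ± 0.73 in TMP195 and 12.96 ± 0.16 in Vehicle (SD, n = 4 each), and every neighbouring pair in this order of levels overlapped.

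Cxcl5, a chemokine of epithelial and stromal cells, had 10.38, 8.94, 9.48 and 9.33 in Combo and 10.05, 8.95, 9.54 and 9.21 in MYCi975. It had 10.15, 11.32, 11.12 and 9.61 in TMP195, against 10.26, 9.93, 9.66 and 9.72 in Vehicle. TMP195 replicates 2 and 3 were the highest of the 16 libraries, as for Cxcl1, and the lowest was Combo replicate 2. Csf3, for G-CSF, showed the same libraries at the top, with 7.73, 8.80, 8.89 and 7.01 in TMP195, against 8.06, 7.74, 7.94 and 7.70 in Vehicle. Its values were 8.71, 7.03, 7.58 and 7.20 in Combo and 8.21, 6.72, 7.69 and 7.49 in MYCi975. The 4 Vehicle libraries lay close together for Csf3 (SD 0.17) and those of the treated groups far wider (SD from 0.62 to 0.90).

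Cxcl3 was lowest in Vehicle and Combo and highest in TMP195, and it was the only member whose groups did not overlap in any of the 5 comparisons made. Its values were 7.59, 7.25, 6.23 and 6.74 in TMP195, against 5.90, 5.27, 5.09 and 5.77 in Vehicle. Combo had 5.43, 5.57, 5.50 and 5.73, and MYCi975 5.68, 5.31, 6.75 and 5.15, where replicate 3 alone lay in the range of TMP195. Every TMP195 library lay above every Combo and every Vehicle library.

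**Figure D2:**
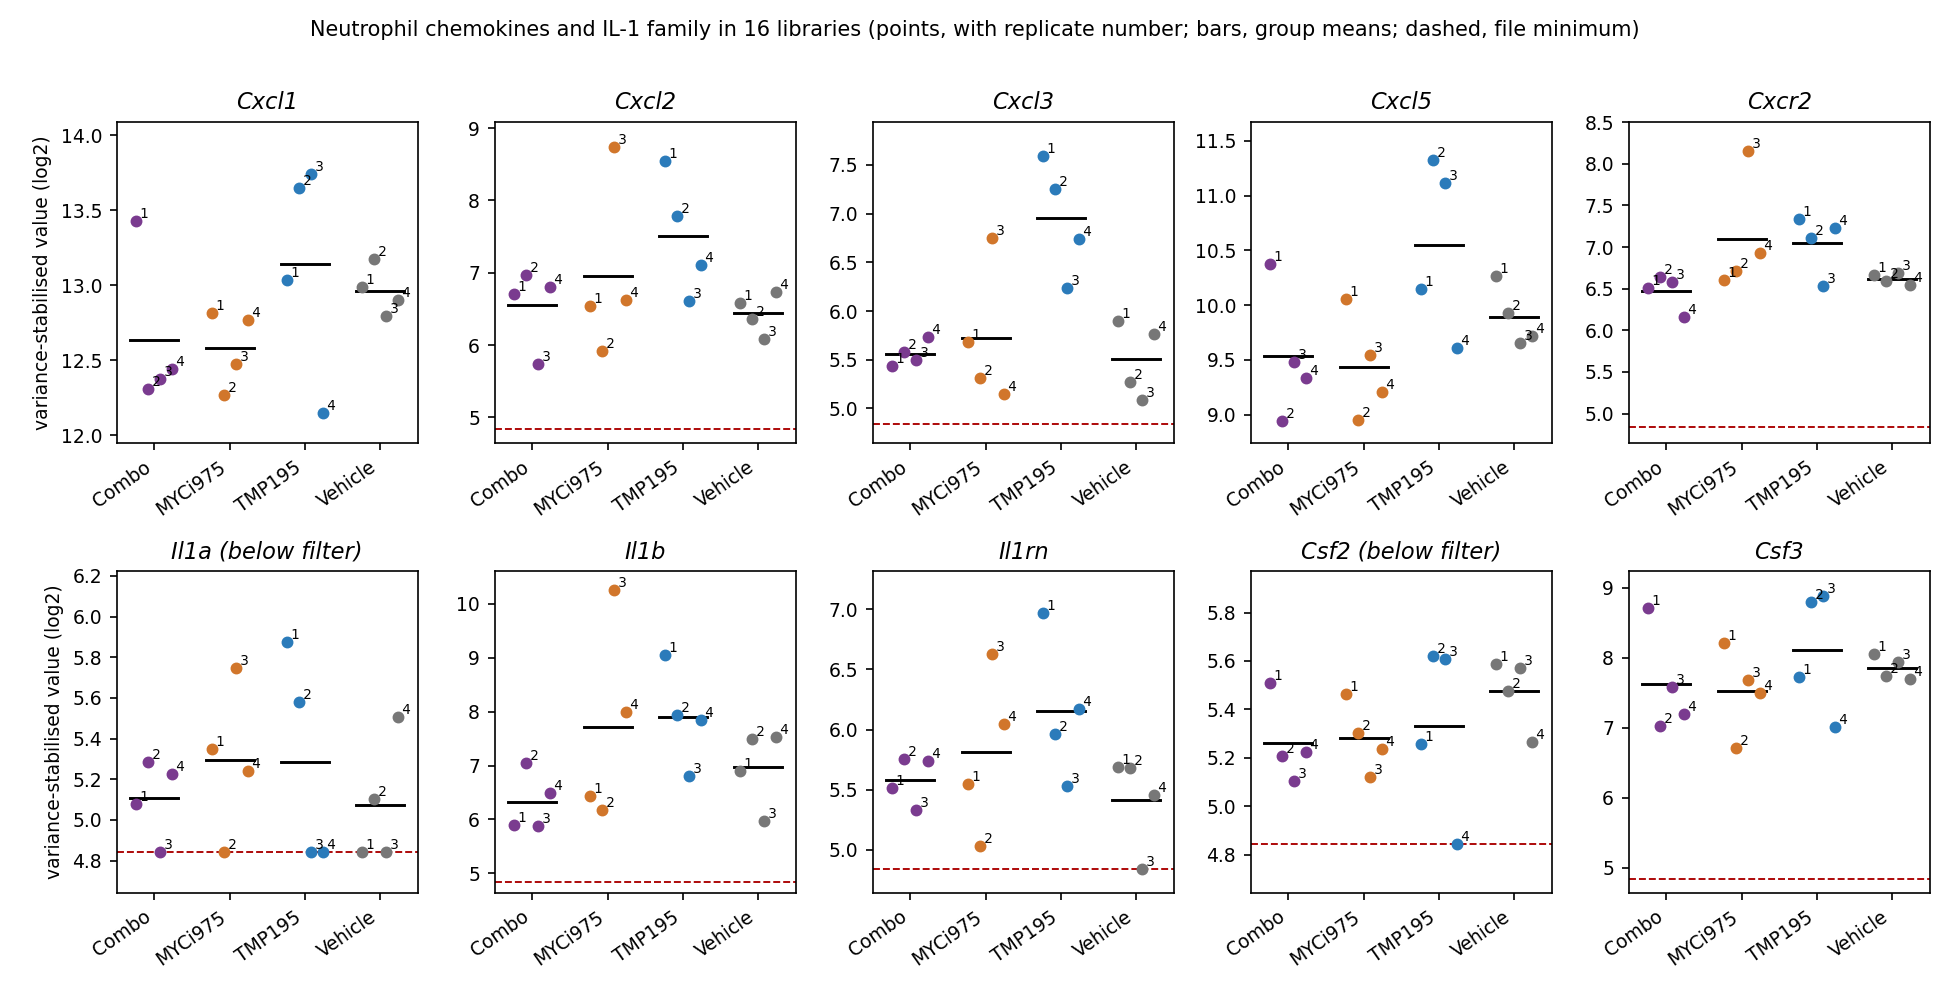
Value of each of the 10 genes (y axis, variance-stabilised log2) in the 16 libraries, by group on the x axis; points carry the replicate number, black bars are group means and the dashed line is the lowest value of the table, where it falls in the panel. MYCi975 replicate 3 and TMP195 replicate 1 are the 2 highest points for Cxcl2, Il1b, Il1rn and Cxcr2, whereas TMP195 replicates 2 and 3 are the 2 highest for Cxcl1, Cxcl5 and Csf3.

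Cxcl2, the close relative of Cxcl1 that macrophages and neutrophils themselves make, had 8.55, 7.78, 6.61 and 7.10 in TMP195, against 6.58, 6.36, 6.09 and 6.73 in Vehicle. It had 6.54, 5.92, 8.74 and 6.63 in MYCi975 and 6.70, 6.96, 5.74 and 6.81 in Combo. The highest value was MYCi975 replicate 3, while the other 3 libraries of that group lay within the range of the rest. Cxcr2, the receptor, had 6.61, 6.72, 8.16 and 6.93 in MYCi975 and 7.34, 7.10, 6.53 and 7.23 in TMP195, against 6.66, 6.59, 6.68 and 6.54 in Vehicle. Its 4 values in Combo, 6.51, 6.64, 6.59 and 6.16, overlapped those of Vehicle.

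Il1b, the gene of secreted IL-1β, had the widest range of the 10 members, 4.38 log2 units. It had 6.44, 6.17, 10.25 and 7.99 in MYCi975 and 9.05, 7.94, 6.80 and 7.83 in TMP195, against 6.89, 7.49, 5.98 and 7.53 in Vehicle. Combo had 5.89, 7.05, 5.88 and 6.49, and the lowest of the 16 libraries was Combo replicate 3. All groups overlapped, and the mean of MYCi975 (7.71 ± 1.87, SD, n = 4) rested on replicate 3. Il1rn, the receptor antagonist, moved with Il1b over the libraries (r = 0.87, rho = 0.84, permutation adjusted p = 7e-05 for r), although many of its values were close to the lowest. It had 6.97, 5.96, 5.53 and 6.17 in TMP195, against 5.69, 5.68, 4.84 and 5.46 in Vehicle, with 5.55, 5.03, 6.63 and 6.04 in MYCi975 and 5.51, 5.75, 5.33 and 5.74 in Combo.

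Il1a and Csf2 were barely detected. Il1a ran from 4.84 to 5.87, at the lowest value in 1 Combo, 1 MYCi975, 2 TMP195 and 2 Vehicle libraries, and its highest values were again TMP195 replicate 1 (5.87) and MYCi975 replicate 3 (5.75). Csf2 ran from 4.84 to 5.62. Mean Csf2 was 5.26 ± 0.17 in Combo, 5.28 ± 0.14 in MYCi975, 5.33 ± 0.37 in TMP195 and 5.48 ± 0.15 in Vehicle (SD, n = 4 each).

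The differences between groups were estimated with limma over 15715 genes that passed the filter. Since the difference of Cxcl3 between TMP195 and Vehicle was known when the genes were chosen, TMP195 against Vehicle and Combo against TMP195 are described here without a test. In TMP195 against Vehicle, Cxcl3 differed by 1.45 (standard error, SE 0.32), Cxcl2 by 1.07 (SE 0.49), Il1b by 0.93 (SE 0.68), Il1rn by 0.74 (SE 0.32), Cxcl5 by 0.66 (SE 0.35) and Cxcr2 by 0.43 (SE 0.26). Csf3 and Cxcl1 differed by 0.25 (SE 0.41) and 0.18 (SE 0.29). All 8 were thus on the higher side, against 46.3% of all genes tested, a share that the way the members were chosen makes uninformative. Cxcl3 alone did not overlap, where 1.1% of all genes had their 4 TMP195 values above all 4 of Vehicle and 1.4% below.

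Leukocyte RNA was also higher in TMP195 than in Vehicle. The medians of the differences were 0.63 for neutrophil markers (6 of 7 tested on the higher side), 0.53 for macrophage and monocyte markers (7 of 8) and 0.73 for general leukocyte markers (8 of 8), against -0.01 for all genes. Fibroblast markers, of cells that can make Cxcl1, Cxcl5 and Csf3, had a median of -0.22 in TMP195 against Vehicle (3 of 8 higher) and 0.33 in Combo against Vehicle (6 of 8 higher), and their part in the results was not tested. Among these markers Dcn (13.52 to 14.88), Pdgfra (12.37 to 13.24) and Lum (11.43 to 13.76) were high in every library. Col1a2 ran from 6.39 to 7.51, and Thy1 was at the lowest value in 7 libraries. Whether fibroblasts or the tumour cells carried these marker transcripts was not tested. With the general leukocyte mean as a covariate, Cxcl3 differed by 0.77, and Cxcl2 (-0.06), Cxcr2 (-0.07) and Il1rn (0.09) were near 0, while Il1b was at -0.61. The same covariate put Cxcl1 at 0.35, Cxcl5 at 0.89 and Csf3 at 0.47, each larger than without it. These values are given without an SE. The covariate itself differed between the groups (mean 6.82 in TMP195, 6.18 in Vehicle), so it cannot separate leukocyte content from an effect of TMP195. Without TMP195 replicate 1, Cxcl3 differed by 1.24, Cxcl2 by 0.73, Il1b by 0.55 and Il1rn by 0.47. Without TMP195 replicate 2, Cxcl5 differed by 0.40, and without replicate 3 Cxcl1 (-0.02) and Csf3 (-0.01) were no longer on the higher side.

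In Combo against TMP195 all 8 genes were on the lower side, led by Il1b (-1.58, SE 0.68), Cxcl3 (-1.40, SE 0.32), Cxcl5 (-1.02, SE 0.35) and Cxcl2 (-0.96, SE 0.49). Cxcl3 did not overlap, where 1.62% of all genes had their 4 Combo values below all 4 of TMP195 and 1.75% above. Cxcr2 (-0.58), Il1rn (-0.57), Cxcl1 (-0.50) and Csf3 (-0.48) followed. Without TMP195 replicate 3, Csf3 differed by -0.21 and Cxcl1 by -0.30, and without TMP195 replicate 1, Il1rn differed by -0.30 and Cxcl2 by -0.61. Neutrophil markers (6 of 7 lower, median -0.86), macrophage and monocyte markers (6 of 8 lower, median -0.55) and general leukocyte markers (8 of 8 lower, median -0.76) were on the lower side too. With the leukocyte covariate, Cxcl5 (-1.25), Cxcl3 (-0.70), Csf3 (-0.70) and Cxcl1 (-0.68) remained below 0, and Cxcr2 was at -0.07, and Cxcl2 (0.21), Il1rn (0.09) and Il1b (0.0046) were not below it. The same limit holds here, as the leukocyte mean was 6.17 in Combo and 6.82 in TMP195.

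**Figure D3:**
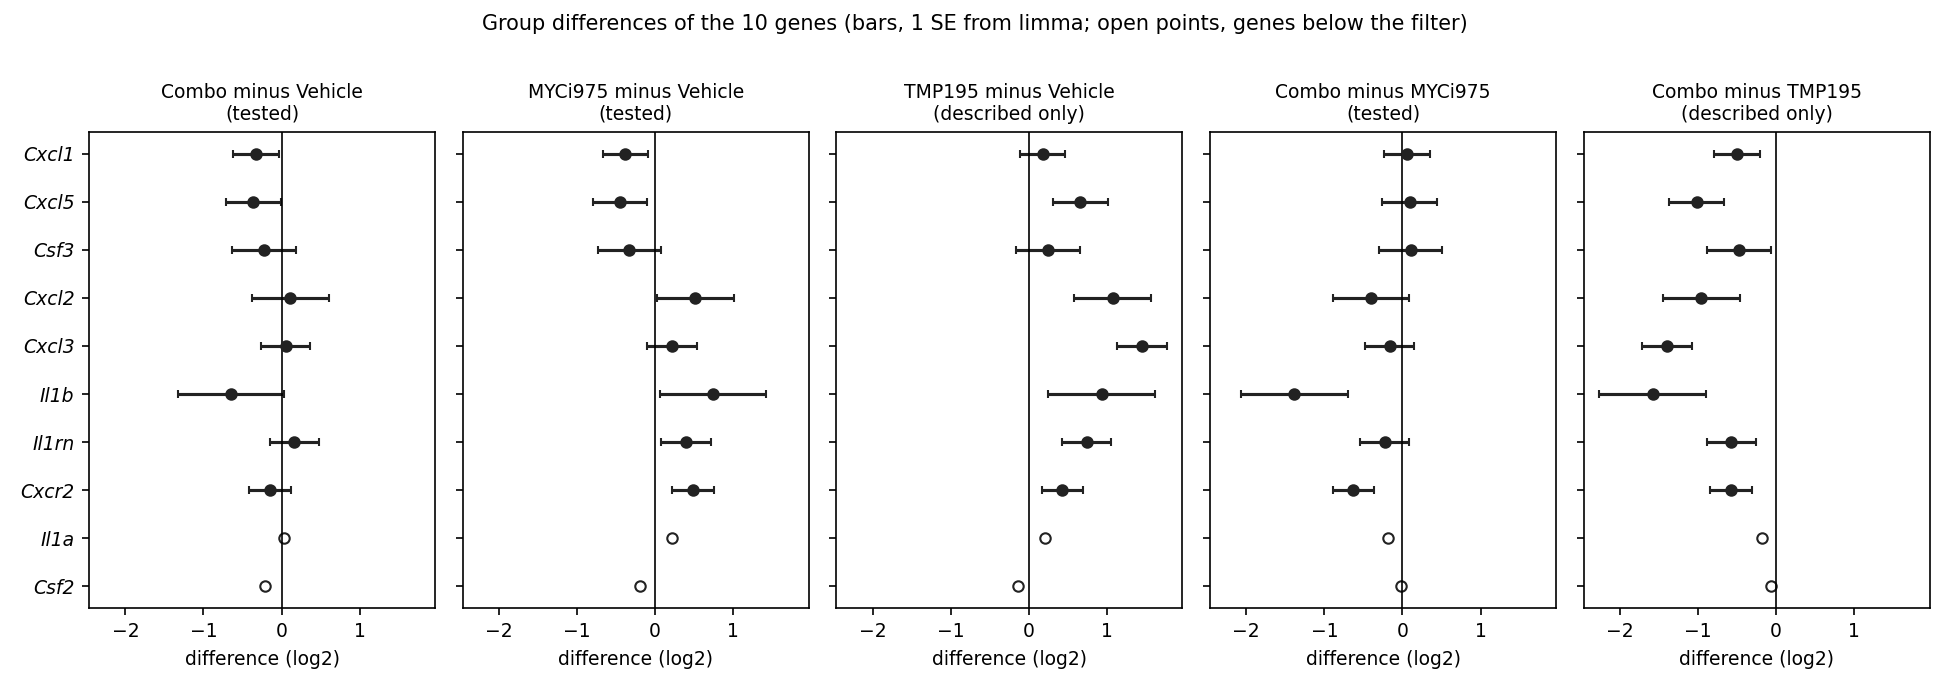
Difference between groups (x axis, log2) for the 10 genes (y axis) in 5 comparisons; points are differences of means, bars 1 SE from limma, and open points the 2 genes below the filter, for which no SE was fitted. All 8 fitted genes lie right of 0 in TMP195 against Vehicle and left of 0 in Combo against TMP195, both described only, and no difference in the 3 tested panels was called.

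MYCi975 against Vehicle asks what MYC inhibition does to these genes. No member was called, and none of all genes tested was (0% by limma at an adjusted p under 0.05; 3.03% at an unadjusted p under 0.05, with no member among them). Cxcl1, Cxcl5 and Csf3 were on the lower side in MYCi975, by -0.38 (SE 0.29, 95% interval -0.997 to 0.23), -0.45 (SE 0.35) and -0.33 (SE 0.41), each with a limma adjusted p of 0.999. Cxcl1 was below the Vehicle mean in 4 of 4 libraries. Without MYCi975 replicate 2 the 3 differences were -0.28, -0.29 and -0.061, and without MYCi975 replicate 1 they were -0.46, -0.66 and -0.56. The second set was on the higher side, with Il1b at 0.74 (SE 0.68), Cxcl2 at 0.52 (SE 0.49), Cxcr2 at 0.48 (SE 0.26), Il1rn at 0.39 (SE 0.32) and Cxcl3 at 0.22 (SE 0.32), each with a limma adjusted p of 0.999. Without MYCi975 replicate 3, Il1b (-0.11), Cxcl2 (-0.08) and Cxcl3 (-0.13) were on the other side of 0, and Cxcr2 (0.13) and Il1rn (0.12) were smaller. No member was free of overlap, where 0.789% of all genes lay above and 0.706% below without overlap. All 7 tested neutrophil markers were on the higher side (median 0.26), and the list averaged 6.996 in MYCi975 replicate 3, while the remaining 3 libraries of the group ran from 5.64 to 6.26. By exact permutation, Csf2 (-0.19, p = 0.114) and Il1a (0.22, p = 0.486) did not differ beyond their spread; the smallest p that 4 against 4 allows is 0.0286.

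Combo against Vehicle asks what both compounds together do. No member was called and no gene was (0% by limma; 4.09% at an unadjusted p under 0.05, with no member among them). Cxcl5 (-0.36, SE 0.35), Cxcl1 (-0.33, SE 0.29) and Csf3 (-0.23, SE 0.41) were on the lower side, each with 3 of 4 Combo libraries below the Vehicle mean and Combo replicate 1 above it. Without Combo replicate 1 these differences were -0.64, -0.59 and -0.59, and without Combo replicate 2 they were -0.16, -0.22 and -0.026. Il1b was at -0.65 (SE 0.68) and Cxcr2 at -0.15 (SE 0.26). Cxcl2 (0.11), Cxcl3 (0.05) and Il1rn (0.17) lay within 1 SE of 0. The limma adjusted p ran from 0.987 to 0.998 over the 8 genes. No member was free of overlap, where 1.79% of all genes lay above and 1.53% below. Csf2 differed by -0.21 (exact permutation p = 0.0857) and Il1a by 0.04 (exact permutation p = 0.914).

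Combo against MYCi975 asks what TMP195 adds to MYCi975, and it shares no library with TMP195 against Vehicle. No member was called and no gene was (0% by limma), and 1 member was among the 2.32% of genes at an unadjusted p under 0.05. This was Cxcr2, lower in Combo by -0.63 (SE 0.26, 95% interval -1.19 to -0.07), with an unadjusted p of 0.0289, a limma adjusted p of 0.99999 and 4 of 4 Combo libraries below the MYCi975 mean. Il1b differed by -1.39 (SE 0.68, 95% interval -2.83 to 0.06; limma adjusted p = 0.99999), also below that mean in 4 of 4. Without MYCi975 replicate 3, Cxcr2 differed by -0.28 and Il1b by -0.54. The other 6 genes ran from -0.40 for Cxcl2 to 0.10 for Csf3. No member was free of overlap, where 0.891% of all genes lay above and 0.815% below. All 7 neutrophil markers were on the lower side in Combo, with a median of -0.54 against 0.00 for all genes. Il1a differed by -0.19 (exact permutation p = 0.4) and Csf2 by -0.02 (exact permutation p = 0.83). The comparisons with Vehicle share its 4 libraries and are not independent of each other.

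Since neutrophils and macrophages carry several of these transcripts, each member was set beside the mean of a marker list of those cells over the 16 libraries. Of the 16 neutrophil markers listed, 12 were in the table, and the members are not on the list. S100a9, an abundant neutrophil protein, ran from 6.41 to 10.31 and S100a8 from 5.30 to 8.32. Ly6g, which defines mouse neutrophils, was at the lowest value in 6 libraries and never above 5.39, and Cd177 was at the lowest value in 10. The list mean ran from 5.57 to 6.14 in Combo, 5.64 to 6.996 in MYCi975, 6.17 to 6.66 in TMP195 and 5.76 to 6.21 in Vehicle.

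Il1b and Cxcl2 followed the neutrophil mean closely. For Cxcl2, r was 0.93 (rho = 0.83) and for Il1b 0.92 (rho = 0.88), each with a permutation p for r of 1e-05, the smallest that the resamples give, and an adjusted p of 1e-04 over 20 relations. Without the 2 farthest libraries, MYCi975 replicate 3 and TMP195 replicate 1, r was 0.86 for Cxcl2 and 0.80 for Il1b (permutation adjusted p = 0.0014 and 0.0062). After group means were subtracted, r was 0.93 and 0.90, and without the libraries numbered 4 it was 0.97 and 0.92. Il1rn (r = 0.83, rho = 0.76), Il1a (r = 0.79, rho = 0.73) and Cxcl3 (r = 0.77, rho = 0.70) also passed, with permutation adjusted p for r from 0.0006 to 0.00191. With group means subtracted, r of Cxcl3 with the neutrophil mean was 0.77. Cxcr2 passed by r (0.81) and not by rho (0.51). Without the 2 farthest libraries Cxcr2 (r = 0.51, permutation adjusted p = 0.152) and Il1a (r = 0.62, permutation adjusted p = 0.0612) no longer passed. By rho, only Cxcl2 and Il1b still passed there, and Cxcl3 (rho = 0.56, permutation adjusted p = 0.131) and Il1rn (rho = 0.65, permutation adjusted p = 0.0791) did not. Cxcl1 (r = 0.16, rho = 0.26), Csf3 (r = 0.17, rho = 0.14), Cxcl5 (r = 0.26, rho = 0.24) and Csf2 (r = -0.16, rho = -0.07) did not pass, with permutation adjusted p from 0.459 to 0.616.

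**Figure D4:**
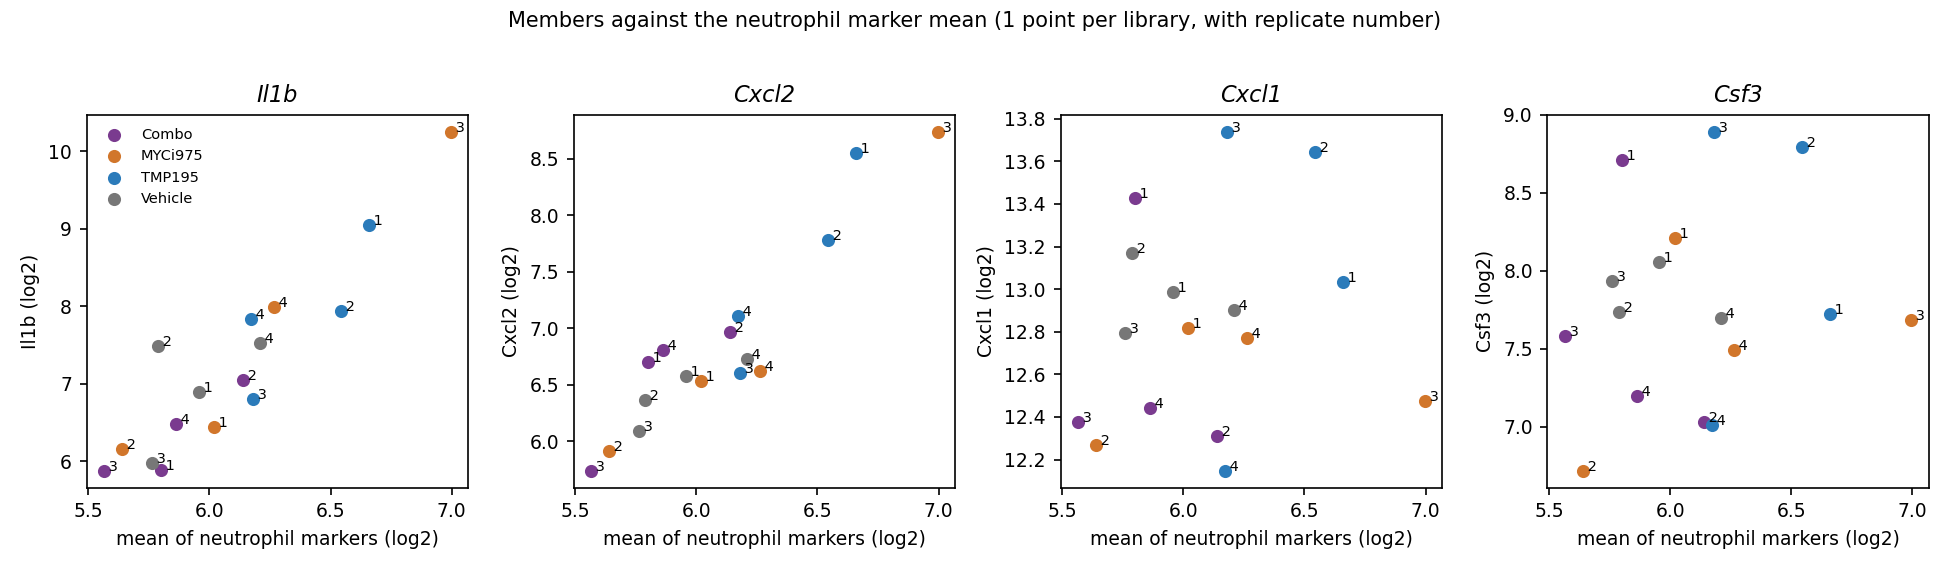
Il1b, Cxcl2, Cxcl1 and Csf3 (y axes, log2) against the mean of 12 neutrophil markers (x axis, log2), with 1 point per library, coloured by group and numbered by replicate. Il1b and Cxcl2 climb with the marker mean from Combo replicate 3 at the lower left to MYCi975 replicate 3 at the upper right, and Cxcl1 and Csf3 scatter without such a trend.

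Of 14 macrophage and monocyte markers, 8 passed the filter. Adgre1 (4.84 to 5.84), C1qa (4.84 to 6.30), C1qb, C1qc, Fcgr1 and Ms4a7 did not. Mertk ran from 9.39 to 10.12 and Lyz2 from 6.20 to 9.87. For the mean of the 14 markers, 5 of the 10 members passed by r: Cxcl3 (0.84, rho = 0.65, permutation adjusted p = 0.00088), Cxcl2 (0.72, rho = 0.74), Il1rn (0.68, rho = 0.52), Il1a (0.62, rho = 0.55) and Il1b (0.57, rho = 0.59). None of these 5 passed without TMP195 replicates 1 and 2, the 2 farthest libraries, where r ran from 0.26 for Il1a to 0.61 for Cxcl3 (permutation adjusted p = 0.405 and 0.0618). After group means were subtracted all 5 passed by r, from 0.64 to 0.84 (0.66 for Cxcl3), and all but Il1rn by rho (permutation adjusted p = 0.135 for Il1rn). Without the same 2 libraries Csf2, which lies near the lowest value throughout, passed at r = -0.68 (permutation adjusted p = 0.0327) and not by rho (-0.51, permutation adjusted p = 0.183).

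**Figure D5:**
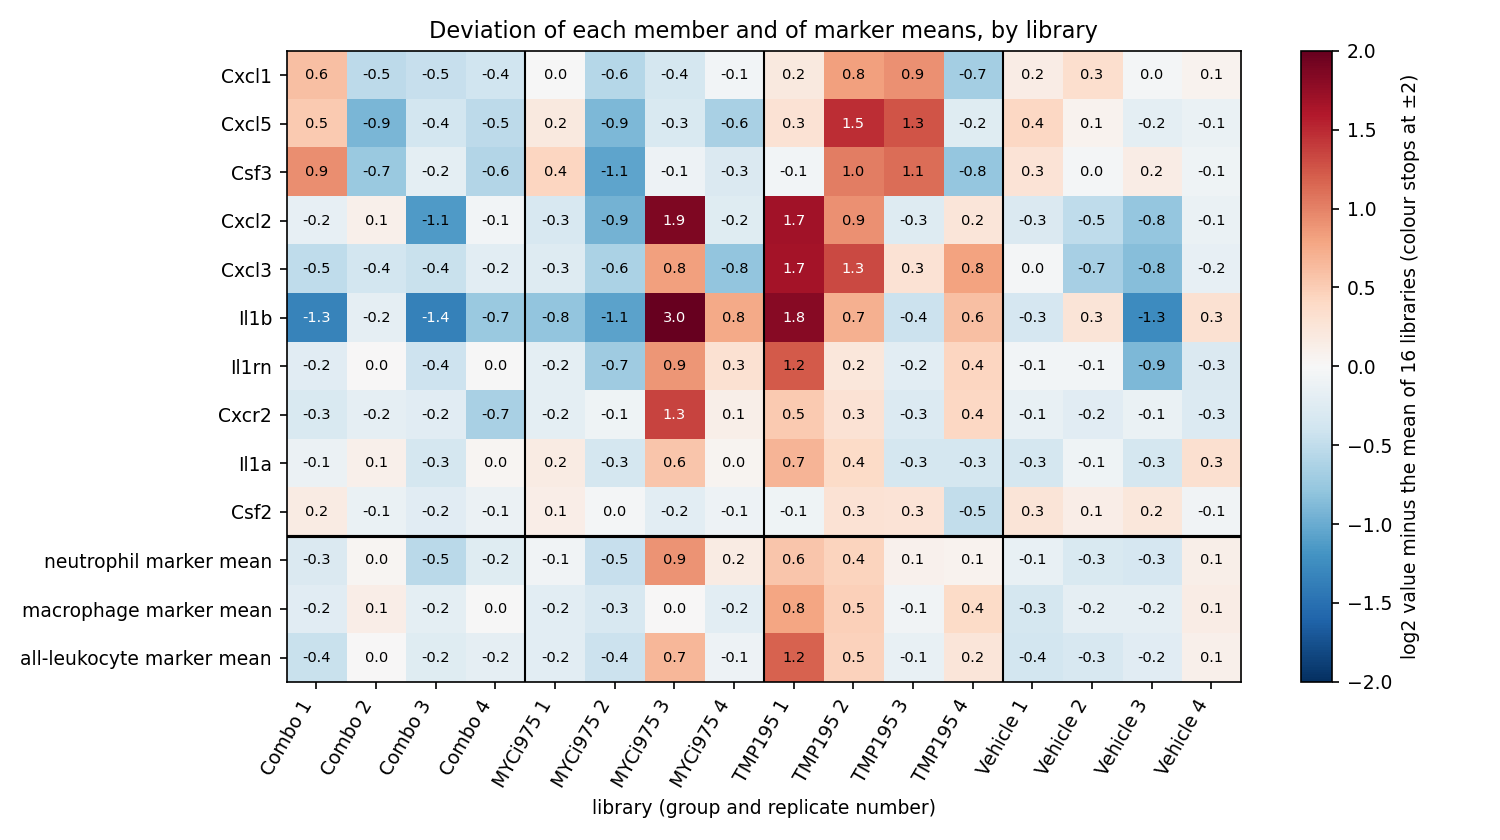
Deviation of the 10 genes and of 3 marker means (rows) from their mean over 16 libraries (columns, by group and replicate), in log2 units printed in each cell. The colour stops at 2, which Il1b passes in MYCi975 replicate 3. The upper 3 rows share their high libraries, TMP195 replicates 2 and 3 and Combo replicate 1, and in the next 5 rows TMP195 replicate 1 and MYCi975 replicate 3 are high, as they are in the neutrophil and general leukocyte means below.

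The genes whose values were most like each member over the 16 libraries, among 12168 named genes, are given as a description, since they were picked as the highest of many. Those of Cxcl1 were Glrx (r = 0.95), Stk17b (0.92) and Stom (0.91). Cxcl5 had Bnip3 (0.89) and Ndrg1 (0.88), genes known to be induced by low oxygen, and Il33 (0.87), another IL-1 family cytokine. Csf3 had Ptgir (0.89), Ier3 (0.87) and Ptgs2 (0.86), the prostaglandin synthase that IL-1 induces. Il1b was most like Acod1 (0.97), the itaconate enzyme of activated myeloid cells, Hdc (0.95), which is on the neutrophil list, and Themis2 (0.95). Cxcl2 had Gda (0.95), Slfn1 (0.95) and Lilrb4a (0.93), and Il1rn had Lcp1 (0.92), which is on the general leukocyte list, Lilrb4a (0.90) and Slfn1 (0.90). Cxcl3 had Fcgr3 (0.93), an Fc receptor of myeloid cells, Ccl6 (0.90) and Gda (0.90), and Cxcr2 had Cd300ld (0.94) and S100a9 (0.87).

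Other genes of the pathways were counted from lists written by the role of the genes. Of 24 tested genes of IL-1 signalling, 20 were lower and 4 higher in Combo against Vehicle (median -0.16), 18 lower and 6 higher in MYCi975 against Vehicle (median -0.14), and 14 lower and 10 higher in Combo against MYCi975 (median -0.03), against medians between -0.01 and 0.00 over all genes. None was called. The decoy receptor Il1r2 differed from Vehicle by -0.51 (SE 0.28) in Combo, -0.19 in MYCi975 and -0.03 in TMP195. The IL-33 receptor Il1rl1 differed by -0.15, -0.50 (SE 0.28) and 0.17 in the same order, and the inflammasome sensor Nlrp3 by -0.29, 0.23 and 0.48 (SE 0.30).

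Of 23 tested NF-κB subunits, inhibitors and target genes, 20 were lower and 3 higher in Combo against Vehicle (median -0.20), 16 lower and 7 higher in MYCi975 against Vehicle (median -0.07), and 17 lower and 6 higher in Combo against MYCi975 (median -0.07), with none called. Over all genes the medians lay between -0.01 and 0.00, and 47.4%, 47.1% and 50.2% were on the higher side in the same order. The mean of the 24 genes of this list was 9.95 in Combo replicate 1, above all Vehicle libraries (9.79 to 9.92). The remaining Combo libraries ran from 9.56 to 9.68. In TMP195 against Vehicle, described only, 12 were lower and 11 higher. Tnfaip3, an inhibitor of NF-κB signalling, differed from Vehicle by -0.39 in Combo, -0.40 in MYCi975 and -0.02 in TMP195 (SE 0.21 each). The adaptor Traf1 differed by -0.47, -0.01 and -0.06 in the same order (SE 0.27), and the adhesion molecule Icam1 by 0.22, 0.23 and 0.53 (SE 0.20).

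Of 15 receptors and ligands that neutrophils and their growth factors use, 6 were tested. None was called: 4 were lower and 2 higher in Combo against Vehicle (median -0.09), 3 lower and 3 higher in MYCi975 against Vehicle (median 0.01), and 6 lower in Combo against MYCi975 (median -0.11). Over all genes the medians lay between -0.01 and 0.00. In TMP195 against Vehicle, described only, all 6 were higher (median 0.58), and in Combo against TMP195 all 6 were lower (median -0.65). The G-CSF receptor Csf3r, the partner of the Csf3 product and also on the neutrophil list, differed from Vehicle by -0.02 in Combo, 0.52 in MYCi975 and 0.83 in TMP195 (SE 0.36 each). The GM-CSF receptor chain Csf2ra differed by 0.22, 0.29 and 0.73 in the same order (SE 0.21), and the chain Csf2rb by -0.61, -0.26 and 0.49 (SE 0.34).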

How the data were processed

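RNA of enriched LLC1 tumour cells was sequenced in 16 libraries, 4 for each of 4 groups, which were read from the sample titles. Per the labels' protocols, the library kit was a stranded one for total RNA. The submitters' processing notes name Salmon with no version and the build hg38, whereas the samples and gene identifiers are of mouse. For the variance stabilisation, the tool is not given in the sources used here. In all, the authors deposited 1 table of variance-stabilised log2 values, which compresses differences of weakly expressed genes, so that their log2 differences understate the fold change. No read counts were recovered, and no interval that needs a depth was computed.

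Symbols were matched by identifier without version (23150 of 24334 identifiers). The test covered 15715 genes, those that exceeded the lowest value (4.84) by 1 log2 unit or more in 4 or more libraries. A model with 1 mean per group over all 16 libraries was fitted with limma 3.58.1 in R 4.3.3, with an intensity trend. P-values are two-sided and adjusted by Benjamini-Hochberg over all genes tested, with a call at an adjusted p under 0.05. Genes below the filter were compared by exact permutation. Correlations were tested with 100000 permutations and adjusted over 20 marker relations or 28 member pairs, the latter added after the data were seen. The fit and the permutations were tested on simulated data.

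The members, marker lists and pathway lists were chosen with earlier results of these data known. All 10 members are named; from each pathway list the 3 genes with the largest difference from Vehicle, and for each member the 3 most alike genes, without predicted or olfactory genes, were named, except 1 that is not reported here. Promoter sequences are from RefSeq (GRCm38.p6). Cxcl1, Cxcl2 and Cxcl3 are related copies, and reads may have been divided between them. The alternatives are given with their effect at the end.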

Additional observations from a re-analysis of the deposited data

Results flagged for a closer look

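Cxcl1 in Combo replicate 1, at 13.43, stood apart from the other 3 Combo libraries, which lay between 12.31 and 12.44; its gap was 0.883 of the range of the group, above Dixon's critical value at 4 samples. Over the 40 gene and group combinations checked, this was the 1 that passed, and chance flags about 1 in 20.

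Il1rn had mean differences of opposite sign where TMP195 was added to MYCi975 and where it was given alone. So did Il1b (-1.39 and 0.93), Cxcr2 (-0.63 and 0.43), Cxcl2 (-0.40 and 1.07), Cxcl3 (-0.17 and 1.45) and Il1a (-0.19 and 0.21). Only for Il1rn did all 4 TMP195 libraries lie above the Vehicle mean and all 4 Combo libraries below the MYCi975 mean. The mean differences of Il1rn were -0.23 for Combo against MYCi975 and 0.74 for TMP195 against Vehicle, which are -0.97 apart. Without MYCi975 replicate 3 the Il1rn value for Combo against MYCi975 was 0.043, so its opposite direction rests on that library. The same value was then 0.19 for Cxcl2 and 0.18 for Cxcl3, but -0.54 for Il1b, -0.28 for Cxcr2 and -0.04 for Il1a. With the leukocyte mean as a covariate the 2 values of Il1rn were -0.03 and 0.09. The difference between them was not tested, and 1 of the 4 Vehicle values is at the lowest value of the table.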

How the results depend on the processing

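No member was called in the 3 tested comparisons under any alternative run: no filter or a stricter one, no intensity trend, robust moderation, quantile or median scaling, the compared groups alone, the leukocyte mean as a covariate, a replicate block, and libraries left out. The stricter filter asked for 2 log2 units above the lowest value in at least 8 libraries. Cxcl2, Cxcl3, Cxcr2 and Il1rn did not pass it and have no value there. Of 282 member differences other than with 1 library left out, 275 kept their direction and 7 did not. The leukocyte covariate put Cxcl3 at 0.046 in Combo against MYCi975. Without TMP195 replicate 1 and MYCi975 replicate 3, Cxcl2 (-0.078), Cxcl3 (-0.13) and Il1b (-0.11) in MYCi975 against Vehicle, and Cxcl2 (0.19), Cxcl3 (0.18) and Il1rn (0.043) in Combo against MYCi975, changed direction. The cause was not tested.

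With 1 library left out, 456 of 480 differences kept their direction. The ranges of those that crossed 0 were, in MYCi975 against Vehicle, -0.078 to 0.86 for Cxcl2, -0.13 to 0.41 for Cxcl3 and -0.11 to 1.26 for Il1b. In Combo against Vehicle they were -0.022 to 0.39 for Cxcl2, -0.088 to 0.18 for Cxcl3, -0.042 to 0.18 for Il1a and -0.026 to 0.26 for Il1rn. In Combo against MYCi975 they were -0.21 to 0.17 for Cxcl1, -0.75 to 0.19 for Cxcl2, -0.36 to 0.18 for Cxcl3, -0.19 to 0.30 for Cxcl5, -0.49 to 0.043 for Il1rn, -0.10 to 0.041 for Csf2 and -0.26 to 0.33 for Csf3.

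Over all genes, limma called 1 in Combo against Vehicle when the compared groups were fitted alone. With 1 library left out it called 0 to 1 in MYCi975 against Vehicle and 0 to 1 in Combo against MYCi975, the 1 in each without MYCi975 replicate 2. Deviations of same-numbered libraries correlated with a median r of 0.19 over 24 pairs, against -0.04 for other pairs, and 9 of 16 libraries correlated best with their own number, a hint from the data that numbers share something. The labels tie the numbers to no shared mouse or batch, and only 15 of the 24 pairs were over 0.1 (lowest -0.24), so the block is an alternative here. A replicate block called 0 genes in each of the 3 comparisons, with 621, 878 and 554 at an unadjusted p under 0.05 in MYCi975 against Vehicle, Combo against Vehicle and Combo against MYCi975, against 476, 642 and 365 without it.

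Among relations that did not pass, r changed sign without the 2 farthest libraries for Csf2 with neutrophil markers (0.076), and with macrophage markers for Cxcl1 (-0.36) and Cxcl5 (-0.17). With group means subtracted it did so for Cxcl1 (-0.35) and Cxcl5 (-0.41) with macrophage markers, and without the libraries numbered 4 for Csf3 (0.11). Il1b with macrophage markers no longer passed without the libraries numbered 4 (r = 0.61, permutation adjusted p = 0.0656). Depth is unknown, and for Il1a, Csf2, Il1rn and Cxcl3, close to the lowest value, differences are limited by few reads. Il1a and Csf2 were compared by the exact test, and by limma only in the run without a filter, so they have no value under the other alternatives of the model.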
